A study of Mus musculus with 90 samples.

Results

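The genes described here are the transcriptional repressors of the circadian clock, namely the period genes Per1, Per2 and Per3, the cryptochrome genes Cry1 and Cry2, Ciart, and the basic helix-loop-helix genes Bhlhe40 and Bhlhe41. Each was read from probe sets that the platform annotation ties to that symbol alone, and the brightest of these, averaged across the 90 arrays, stood for the gene. All 8 genes were found in this way, among 17097 genes measured by the same rule. In wild-type mice, inhaled styrene went with higher Per3 at both doses and both durations, and with higher Bhlhe40 after 1 week. Per1 and Cry2 passed in 0 of 12 comparisons of an exposed group with its control, while Cry1 was lower in the exposed group in all 12 and passed in 1 of them.

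Whole lungs came from 90 adult male C57Bl/6 mice of 3 strains, which were wild type (WT), CYP2F2(-/-) knockout (KO), and CYP2F2(-/-) mice carrying the transgenes 2F1, SA13 and 2B6 as the design text spells them (TG). Both KO and TG mice thus lack Cyp2f2, the cytochrome P450 of airway club cells that oxidises styrene. Mice inhaled air alone (0 ppm) or styrene at 40 or 120 ppm on 5 days of each week, and the exposure lasted 1 or 4 weeks. Each of the 18 combinations held 5 animals, labelled as biological replicates, with 1 array per animal. Animals lived on a 12 h light and 12 h dark cycle and were killed on the morning after their last exposure. The sources used here do not give the hour at which each animal was killed, the promoters that drive the transgenes or the number of founder lines. Every animal was sampled once, so a shift in the timing of a daily rhythm and a change in its average level cannot be told apart. In whole lung, a change in RNA per cell and a change in the number of cells of a type cannot be told apart either.

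In the mammalian clock, a dimer of ARNTL with CLOCK or NPAS2 binds E-box sequences and switches on the period and cryptochrome genes. PER and CRY proteins then gather in the nucleus and inhibit that dimer, so that their own genes are switched off until the proteins are degraded. CIART also represses the dimer, and BHLHE40 and BHLHE41 compete with it for E-boxes. A second loop of nuclear receptors sets the level of Arntl, and the factors DBP, TEF and HLF act through D-boxes, with NFIL3 as their antagonist. The lung holds such a clock in many of its cell types, and Per1 also responds directly to glucocorticoids and to cyclic AMP.

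The deposited values are on a log2 scale, and the array medians ranged from 4.42 to 4.86. The targeted gene, Cyp2f2, lay between 12.73 and 13.39 in 30 WT animals, between 11.53 and 12.28 in 30 KO animals and between 11.58 and 12.13 in 30 TG animals, and the WT range did not overlap the others. The sources used here do not say which part of the gene is deleted, nor whether the probe set lies in it. Of 9 measured genes that mark lung cells, 0 had a mean below 4.42. All 6 liver, 3 of 4 skeletal muscle and 3 of 4 thymus markers did, as did 1 of 3 fat and 0 of 4 heart muscle markers. The mean level of a list varied widely between animals for heart muscle (5.76 to 10.99), fat (3.75 to 8.30) and skeletal muscle (3.60 to 8.43, with a median of 3.85), and less for liver (2.95 to 5.61) and thymus (3.15 to 4.19). The part of these tissues in the results was not tested. The limma array weight was below 0.25 for 4 arrays (KO control animal 3, TG control animal 5 and WT 120 ppm animal 3 at 1 week, and KO 40 ppm animal 1 at 4 weeks). A difference below is a difference of log2 group means, with the standard error (SE) of a limma fit over all 17097 genes. It passed at a Benjamini-Hochberg adjusted p under 0.05. Where 2 groups of 5 animals do not overlap, the exact two-sided permutation test gives p = 0.0079, the smallest that its 252 divisions allow.

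RefSeq promoter windows of build GRCm38.p6, each reaching from 250 bases before a start site to 50 after it, were found for 6 of the 8 genes. Those of Per3, Ciart, Cry1 and Per1 are shown because the sequences through which the clock acts can be read in them and because they cover 1 gene that rose in WT at each dose and duration, 1 that rose and 1 that fell at 120 ppm and 1 week, and 1 that did not pass. The Per3 window lies at chr4:151044616-151044915 on the minus strand, that of Ciart at chr3:95882179-95882478 on the minus strand, that of Cry1 at chr10:85185005-85185304 on the minus strand, and the first of a pair for Per1 at chr11:69098699-69098998 on the plus strand. Each spans a transcript start that RefSeq gives. That of Per1 lies inside the annotated gene, which runs from 69095108 to 69109965, and not at its outermost start. Capitals mark D-boxes in Per3, E-boxes in Ciart and Per1, and an E'-box followed by an E-box in Cry1.
Per3: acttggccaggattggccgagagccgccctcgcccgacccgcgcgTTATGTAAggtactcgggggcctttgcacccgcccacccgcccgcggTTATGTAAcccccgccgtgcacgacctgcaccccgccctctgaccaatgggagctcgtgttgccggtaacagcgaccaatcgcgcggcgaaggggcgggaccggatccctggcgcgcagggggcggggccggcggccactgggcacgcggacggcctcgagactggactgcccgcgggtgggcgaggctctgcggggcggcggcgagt
Ciart: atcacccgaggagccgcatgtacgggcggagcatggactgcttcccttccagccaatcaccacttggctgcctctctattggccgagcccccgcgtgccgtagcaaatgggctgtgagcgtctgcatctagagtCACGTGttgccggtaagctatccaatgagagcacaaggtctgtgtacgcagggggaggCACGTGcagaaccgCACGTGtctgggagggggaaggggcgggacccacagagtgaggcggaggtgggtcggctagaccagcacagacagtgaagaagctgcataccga
Cry1: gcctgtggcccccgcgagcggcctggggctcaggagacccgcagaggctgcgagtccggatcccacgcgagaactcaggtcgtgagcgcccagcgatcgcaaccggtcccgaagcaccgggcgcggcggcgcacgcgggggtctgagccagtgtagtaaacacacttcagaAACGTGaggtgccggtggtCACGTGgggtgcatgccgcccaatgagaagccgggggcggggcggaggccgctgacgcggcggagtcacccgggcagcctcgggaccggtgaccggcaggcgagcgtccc
Per1: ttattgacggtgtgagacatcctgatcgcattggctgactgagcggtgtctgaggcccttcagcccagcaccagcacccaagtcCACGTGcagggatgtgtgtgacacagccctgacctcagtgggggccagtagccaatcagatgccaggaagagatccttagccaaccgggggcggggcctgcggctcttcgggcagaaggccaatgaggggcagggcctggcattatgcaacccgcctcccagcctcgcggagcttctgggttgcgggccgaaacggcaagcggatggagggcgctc
Both strands were searched for 5 motifs. The E-box was spelled CACGTG. The E'-box was spelled CACGTT, so that its match on the opposite strand reads AACGTG in the lines above. The D-box was spelled TTANGTAA, with any base in the middle. The cAMP response element was spelled TGACGTCA, and the element bound by ROR receptors was spelled TAGGTCA. No motif shared bases with another in the windows of these genes. The Per3 window held 2 D-boxes, whose first bases lie at -205 and -158 relative to the start, and no E-box. At least 2 D-boxes were present in 0.0822% of 32851 RefSeq promoter windows, and at least 1 in 2.32%. The Ciart window held 3 E-boxes, at -116, -58 and -44, which 0.0883% of all windows matched or exceeded, and 7.15% of windows held at least 1. Cry1 had an E'-box at -79 and an E-box at -60, and Per1 had 1 E-box at -166. Cry2 had an E'-box at -166 and Bhlhe41 an E-box at -153, and 4.68% of all windows held an E'-box. The cAMP response element and the ROR element, present in 1.79% and 2.61% of all windows, matched in none of the windows of these genes. These matches describe the letters of the windows, and binding was not measured.

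Among the period genes, Per3 showed the largest differences between exposed and control WT lungs. In the 1 week controls, the 5 animals measured 7.06, 7.58, 6.79, 6.86 and 7.13 log2. At 40 ppm they measured 8.36, 7.94, 8.47, 8.88 and 8.93, and at 120 ppm 8.27, 8.30, 8.36, 8.72 and 8.64. Every exposed animal lay above every control. At 40 ppm Per3 was 2.69-fold higher (log2 difference 1.43, SE 0.21, adjusted p = 6.6e-07). It was 2.60-fold higher at 120 ppm (1.38 with an SE of 0.21, adjusted p = 1.3e-06), against the same controls. At 4 weeks the controls ranged from 7.09 to 7.80, the 40 ppm animals from 8.16 to 8.77 and the 120 ppm animals from 8.05 to 9.25, again with no overlap. Here the lower dose gave a 1.98-fold rise (0.99, SE 0.21, adjusted p = 0.011). The higher dose gave a 2.42-fold rise (1.27, SE 0.21, adjusted p = 5.8e-05). The 40 ppm call at 4 weeks was lost without control animal 3 (adjusted p = 0.087), control animal 5 (0.074), exposed animal 3 (0.075) or exposed animal 4 (0.068), with a log2 difference of at least 0.90 in each case.

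Per2, the period gene whose product carries much of the inhibition by the PER and CRY complex, varied more among animals. Its 1 week WT controls measured 6.25, 7.92, 7.33, 7.15 and 7.36, and the 120 ppm animals 8.05, 7.84, 8.02, 8.21 and 7.92. Control animal 2 lay within the exposed range and control animal 1 far below it. Per2 rose 1.75-fold at 120 ppm (0.81, SE 0.26, adjusted p = 0.040, exact permutation p = 0.016). That call was lost on leaving out any 1 of 8 animals, with adjusted p-values of 0.17, 0.053, 0.071 and 0.053 without control animals 1, 3, 4 and 5, and of 0.07, 0.05, 0.069 and 0.077 without exposed animals 1, 2, 4 and 5. It was also lost with the median over probe sets, with array weights and with only the compared arrays fitted (adjusted p up to 0.22). At 40 ppm the difference was 0.79 (SE 0.26, adjusted p = 0.06) and did not pass. At 4 weeks it was 0.54 at 40 ppm and 0.83 at 120 ppm (SE 0.26, adjusted p = 0.22), with controls from 6.86 to 8.53 that spanned most of the exposed values.

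Per1, the period gene best known for its fast response to hormones and second messengers, did not pass in any comparison with a control. In 1 week WT controls it measured 8.53, 9.03, 8.47, 7.81 and 8.29, at 40 ppm 7.71, 8.67, 8.12, 7.87 and 7.76, and at 120 ppm 8.59, 8.27, 7.76, 8.75 and 8.03. The 3 groups overlapped. The differences were -0.40 at 40 ppm and -0.15 at 120 ppm after 1 week (SE 0.23), and 0.20 and 0.19 after 4 weeks. Over the 12 comparisons Per1 ranged from -0.40 to 0.51, positive in 9 and negative in 3, and the groups overlapped in all 12.

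**Figure D1:**
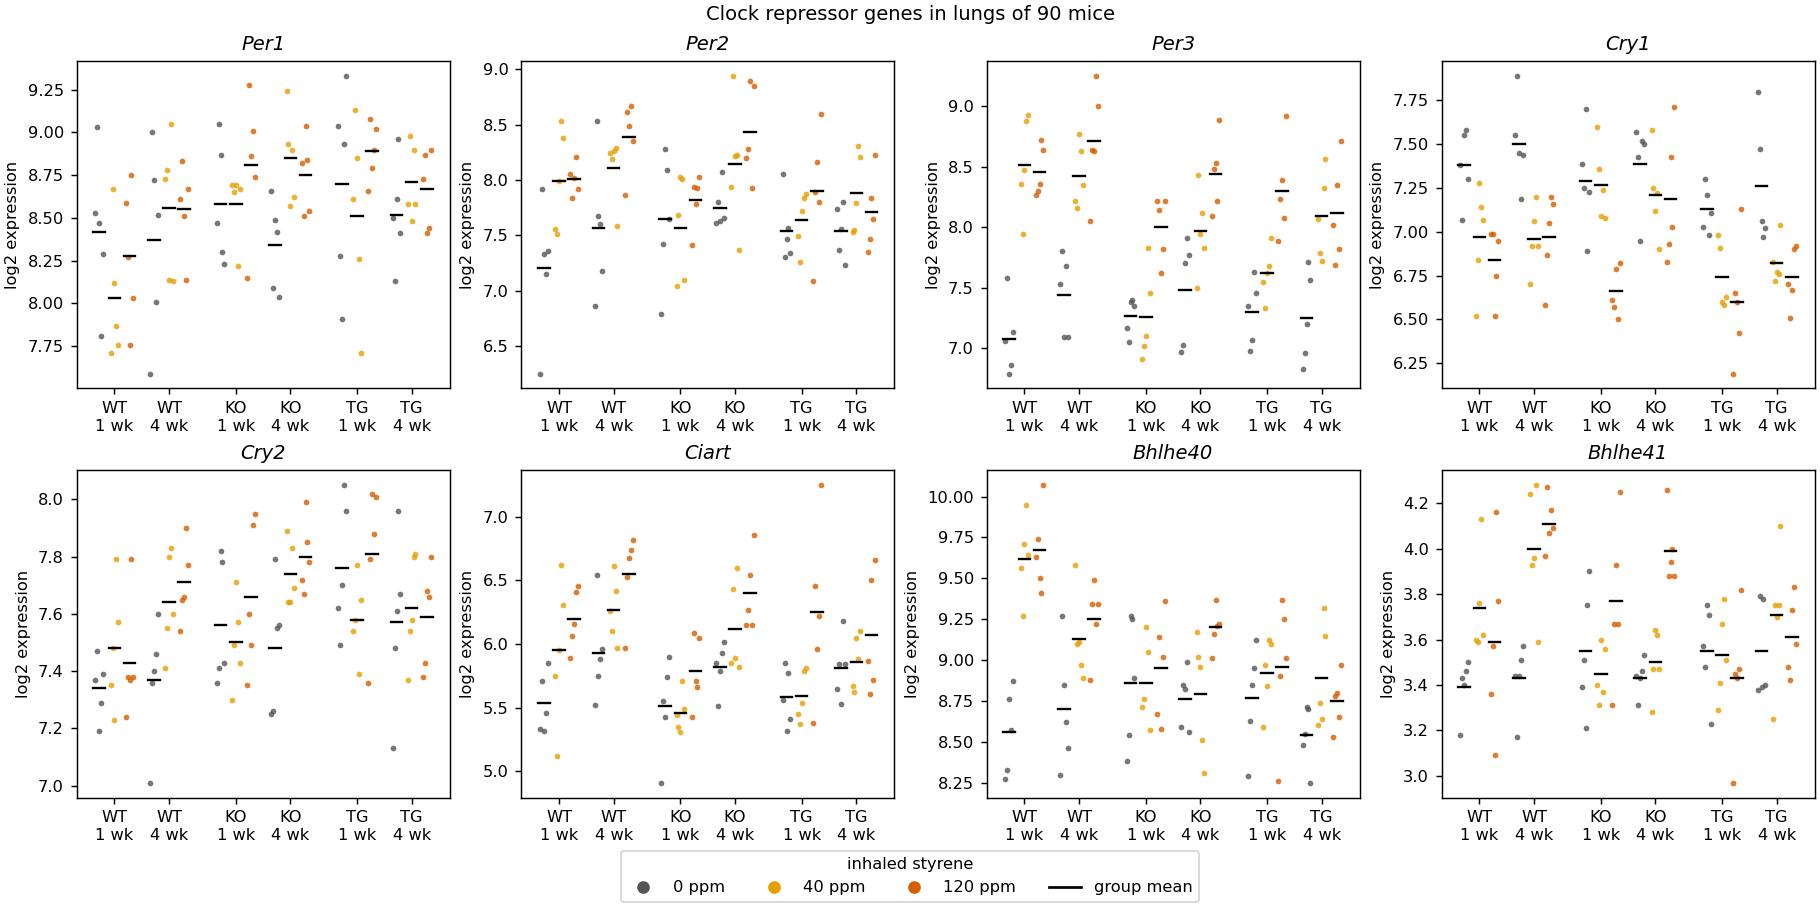
Log2 expression of the 8 clock repressor genes in each of 90 animals (points, coloured by dose in ppm), in groups of strain and weeks of exposure (wk), with the mean of each group of 5 as a black line. In WT mice the Per3 points of both exposed groups lie above all control points at each duration, and the Per1 groups overlap throughout.

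Of the cryptochromes, which bind the activating dimer most tightly, Cry1 was lower and Cry2 did not pass. In 1 week WT controls Cry1 measured 7.38, 7.07, 7.55, 7.58 and 7.30, and at 120 ppm 6.99, 6.99, 6.52, 6.75 and 6.95, with every exposed animal below every control. Cry1 fell by 0.54 on the log2 scale (1.45-fold, SE 0.15, adjusted p = 0.018). The call was lost without control animal 3 (adjusted p = 0.056), control animal 4 (0.059) or exposed animal 3 (0.053), and when only the compared arrays were fitted (0.13). The other WT differences were of like size and did not pass, at -0.41 for 40 ppm at 1 week (adjusted p = 0.13), -0.54 for 40 ppm at 4 weeks (0.21) and -0.53 for 120 ppm at 4 weeks (0.14). Across strains, doses and durations the Cry1 difference was negative in 12 of 12 comparisons, from -0.64 to -0.02 with a median of -0.48. The 12 comparisons share 6 control groups. In 4 of them the groups did not overlap, and of these only the WT comparison passed. They were WT at 120 ppm and 1 week (2.64% of all genes without overlap) and KO at 120 ppm and 1 week (0.602%). The others were TG at 40 ppm and 1 week (0.678%) and TG at 120 ppm and 4 weeks (1.54%). Cry2 differences ran from -0.18 to 0.34. The largest in WT, 0.34 at 120 ppm and 4 weeks (SE 0.13, adjusted p = 0.50), set controls of 7.01, 7.36, 7.40, 7.46 and 7.60 against exposed animals of 7.54, 7.65, 7.66, 7.90 and 7.77, which overlap in 1 control animal.

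Ciart, which encodes a repressor of the same dimer, was measured in 1 week WT controls at 5.33, 5.71, 5.32, 5.46 and 5.85 and at 120 ppm at 5.89, 6.06, 6.16, 6.41 and 6.46. No values overlapped. It rose 1.58-fold (0.66, SE 0.22, adjusted p = 0.045). Leaving out any 1 of 7 animals ended the call, with adjusted p-values of 0.083, 0.067, 0.11 and 0.082 without control animals 1 to 4 and of 0.056, 0.083 and 0.15 without exposed animals 2, 4 and 5. Array weights and a fit of only the compared arrays ended it too (adjusted p up to 0.093). At 40 ppm the animals spread from 5.12 to 6.62 around a difference of 0.42 that did not pass, and the 4 week differences of 0.34 and 0.62 did not pass either.

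Of the E-box competitors in WT, Bhlhe40 passed at both doses after 1 week and Bhlhe41 at 120 ppm after 4 weeks. For neither gene did the change at 4 weeks against that at 1 week pass. Bhlhe40, a gene that also responds to growth factors, hypoxia and inflammation in many cells, measured 8.27, 8.33, 8.76, 8.57 and 8.87 in 1 week WT controls. It measured 9.56, 9.27, 9.71, 9.95 and 9.64 at 40 ppm, and 9.63, 9.74, 9.50, 9.41 and 10.07 at 120 ppm. The lowest exposed animal was thus above the highest control. The lower dose gave a 2.09-fold rise (1.06, SE 0.18, adjusted p = 1.3e-05). The higher dose gave a 2.16-fold rise (1.11, SE 0.18, adjusted p = 4.8e-06). After 4 weeks the differences were 0.43 and 0.55 (SE 0.18, adjusted p = 0.86 and 0.26), with 1 control animal at 9.27 inside both exposed ranges. Bhlhe41 was dim, with a mean of 3.63 over all arrays, below the lowest array median. Its 4 week WT controls measured 3.44, 3.17, 3.44, 3.51 and 3.57 and the 120 ppm animals 3.97, 4.27, 4.07, 4.17 and 4.09, with no overlap. The difference of 0.68 passed (SE 0.14, adjusted p = 0.0041), and that of 0.57 at 40 ppm did not (adjusted p = 0.077). After 1 week the Bhlhe41 differences were 0.35 at 40 ppm (adjusted p = 0.18) and 0.20 at 120 ppm (0.48), and did not pass. The groups at 40 ppm and 1 week did not overlap, as for 6.91% of all genes.

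Counted over the 8 genes in WT lungs, 2 rose at 40 ppm and 1 week, where 4.67% of all genes passed, and 4 rose and 1 fell at 120 ppm and 1 week, where 6.79% did. At 4 weeks 1 rose at 40 ppm against 0.152% of all genes, and 2 rose at 120 ppm against 0.439%. The medians over the 8 genes were 0.38, 0.43, 0.39 and 0.58 in that order, and the medians over all genes between 0.00 and 0.03. Members whose groups did not overlap numbered 3, 4, 2 and 2, against 6.91%, 2.64%, 2.04% and 2.19% of all genes. Per3 was the only one of the 8 that passed in all 4 WT comparisons. No member passed in the direct comparison of 120 with 40 ppm in WT, either at 1 week (percentage of all genes 0, with 873 genes at an unadjusted p under 0.05 in limma) or at 4 weeks (0, with 365 genes). The largest of those 16 differences was 0.29 for Per3 at 4 weeks (SE 0.21).

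In KO lungs 0 of the 8 genes passed at either dose or duration. At 40 ppm and 1 week the percentage of all genes called was 0 (611 genes had an unadjusted p under 0.05 in limma), and the member differences lay within -0.10 and 0.00. At 120 ppm and 1 week it was 0 as well (881 genes unadjusted). Here Per3 measured 7.17, 7.05, 7.38, 7.40 and 7.35 in controls and 8.22, 8.14, 7.62, 7.82 and 8.22 in exposed animals, a difference of 0.73 without overlap (SE 0.21, adjusted p = 0.43). Cry1 differed by -0.64 (SE 0.15, adjusted p = 0.26), from 7.39, 7.25, 7.70, 6.89 and 7.23 to 6.61, 6.57, 6.79, 6.50 and 6.82, also without overlap. Groups did not overlap for 0.602% of all genes there. At 40 ppm and 4 weeks the percentage was 0 (537 genes unadjusted), and the largest member difference was 0.51 for Per1.

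At 120 ppm and 4 weeks, 0.0234% of all genes passed in KO lungs, which is 4 genes, all of the clock. They were Npas2 (-1.72, SE 0.29, adjusted p = 0.00087), Dbp (2.44, SE 0.43), Arntl (-1.45, SE 0.29) and Tef (0.75, SE 0.16). Per3 was near them with a difference of 0.97 (SE 0.21, adjusted p = 0.051), from 6.97, 7.03, 7.70, 7.91 and 7.77 in controls to 8.09, 8.48, 8.53, 8.22 and 8.89 in exposed animals. Its adjusted p was 0.020 without control animal 4 and 0.029 without exposed animal 1. Ciart (0.57), Bhlhe40 (0.43) and Bhlhe41 (0.56) did not overlap between these groups either, and did not pass (adjusted p = 1, 1 and 0.33). Of all genes, 0.807% did not overlap. Per2 differed by 0.68 (SE 0.26), with overlap, and did not pass.

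In TG lungs Per3 passed at 120 ppm and 1 week, rising 2.00-fold (1.00, SE 0.21, adjusted p = 0.032). The controls measured 7.35, 6.98, 7.07, 7.63 and 7.46 and the exposed animals 7.89, 8.23, 8.39, 8.08 and 8.92, which do not overlap (0.638% of all genes did not). The call was lost without control animal 2 (adjusted p = 0.13) or 3 (0.081), and without exposed animal 2 (0.082), 3 (0.063) or 5 (0.20). It was also lost with the median over probe sets, a poly-A control covariate or only the compared arrays fitted (up to 0.29). In that comparison 0.0468% of all genes passed, or 8 genes, and 5 of the 8 were Npas2 (-1.96), Arntl (-1.60), Per3, Dbp (1.98) and Nfil3 (-1.20). The other 3 were H3c14, H3c15 and Hemk1. Ciart differed by 0.67 in that comparison (SE 0.22, adjusted p = 0.31 in limma) and did not pass. At 120 ppm and 4 weeks 0.0117% passed, which were Dbp (2.12) and Npas2 (-1.43), and 0 of the 8 members did, with Per3 at 0.87 (SE 0.21, adjusted p = 0.17) and Cry1 at -0.52 (adjusted p = 0.38). At 40 ppm 0 members passed at 1 week (percentage of all genes 0, with 757 unadjusted) and at 4 weeks (0, with 1278 unadjusted). Per3 at 40 ppm and 4 weeks went from 6.83, 6.96, 7.20, 7.71 and 7.56 to 8.07, 7.79, 7.72, 8.32 and 8.56 without overlap (0.84, SE 0.21, adjusted p = 0.22), where 1.6% of all genes did not overlap.

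**Figure D2:**
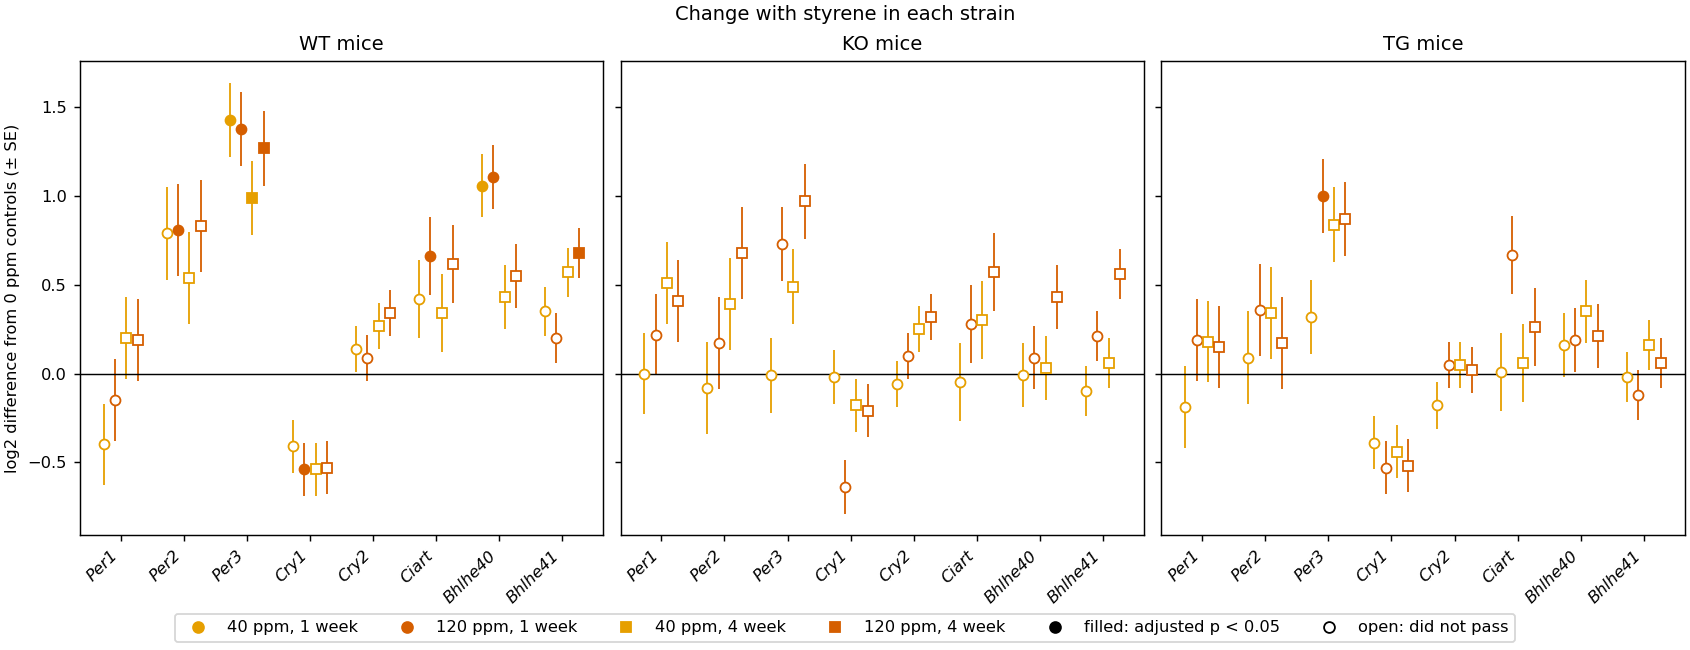
Log2 difference between each exposed group and its 0 ppm control (points, with bars of 1 SE from the limma fit) for the 8 genes in WT, KO and TG mice. Colour gives the dose and shape the duration, and filled points passed at an adjusted p under 0.05. Per3 lies above 0 in 11 of 12 comparisons and Cry1 below 0 in 12 of 12.

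Whether the change differed between strains was tested directly. After 1 week at 40 ppm, Per3 changed less in KO than in WT (difference of differences -1.44, SE 0.30, adjusted p = 0.0024), and so did Bhlhe40 (-1.07, SE 0.25, adjusted p = 0.012), while 1.25% of all genes passed. TG mice also differed from WT there in Per3 (-1.11, SE 0.30, adjusted p = 0.029) and Bhlhe40 (-0.91, SE 0.25, adjusted p = 0.042), against 1.53% of all genes. At 120 ppm and 1 week, Bhlhe40 was the single member that passed. The difference was -1.02 in KO (SE 0.25, adjusted p = 0.013), where 2.37% of all genes passed. It was -0.92 in TG (SE 0.25, adjusted p = 0.019), against 4.59% of all genes. Per3 did not pass at that dose, with -0.64 in KO (SE 0.30, adjusted p = 0.27) and -0.38 in TG (SE 0.30, adjusted p = 0.48). The differences for Cry1 were 0.39 and 0.02 at 40 ppm and -0.10 and 0.01 at 120 ppm (SE 0.22), none of which passed. At 4 weeks 0 members passed at 40 ppm in KO (0.0234% of all genes) or TG (0.0117%), or at 120 ppm in KO (0.0175%) or TG (0.0292%). All 8 of these comparisons use WT groups, and KO and TG are set against the same WT animals.

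These strain differences were not equally firm. For KO at 40 ppm, Per3 and Bhlhe40 passed on leaving out each of 20 animals in turn. For TG at 40 ppm, the adjusted p of Per3 lay between 0.052 and 0.082 without WT control animal 3 or 4, TG control animal 4 or 5, WT exposed animal 4 or 5, or TG exposed animal 1 or 2. That of Bhlhe40 lay between 0.051 and 0.13 without WT control animal 1, 2 or 4, TG control animal 3, 4 or 5, WT exposed animal 1, 3, 4 or 5, or TG exposed animal 1 or 3. At 120 ppm, Bhlhe40 in KO had 0.056 without WT exposed animal 5. In TG it had 0.058 without WT control animal 2, 0.075 without TG control animal 5, 0.068 without WT exposed animal 5 and 0.078 without TG exposed animal 1. Without the 4 arrays of low weight, the TG values at 40 ppm were 0.053 for Per3 and 0.092 for Bhlhe40. Array weights or a fit of only the compared arrays ended both Bhlhe40 calls at 120 ppm (up to 0.19 in KO and 0.21 in TG).

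The change itself was also compared between 4 weeks and 1 week, and 0 of the 8 genes passed in any strain or dose. The percentages of all genes were 0.532 at 40 ppm and 0.883 at 120 ppm in WT, and 0 at each dose in KO and in TG (413 and 435 genes unadjusted in KO, 573 and 872 in TG). Bhlhe40 in WT had the lowest value, -0.63 at 40 ppm (SE 0.25, adjusted p = 0.51). With 10 exposed and 10 control animals, the mean change over both durations, a comparison added after the data were seen, gave smaller errors. In WT at 40 ppm 5 genes passed against 3.82% of all genes, namely Per2 (0.67, SE 0.18), Per3 (1.21, SE 0.15), Bhlhe40 (0.75, SE 0.13) and Bhlhe41 (0.46, SE 0.10), which rose, and Cry1, which fell (-0.48, SE 0.11, adjusted p = 0.0032). The Per2 call was lost without control animal 1 (adjusted p = 0.067) or 40 ppm animal 4 at 1 week (0.057), or without control animal 1 at 4 weeks (0.06). In WT at 120 ppm the same 5 passed, and Ciart also rose (0.64, SE 0.15, adjusted p = 0.0040), against 5.78% of all genes. Per1 was at -0.10 and 0.02 (SE 0.16) and Cry2 at 0.21 and 0.21 (SE 0.09, adjusted p = 0.21 and 0.15).

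In KO mice at 120 ppm Per3 rose by 0.85 over both durations (SE 0.15, adjusted p = 0.00073), among 0.076% of all genes. In TG mice at 120 ppm Per3 rose by 0.93 (1.91-fold, SE 0.15, adjusted p = 6.4e-05) and Cry1 fell by 0.52 (1.44-fold, SE 0.11, adjusted p = 0.0067), among 0.275%. At 40 ppm 0 of the 8 passed in KO or TG, where 0 genes of all passed in either strain, and the Per3 values were 0.24 and 0.58. The 1 week and 4 week groups of animals are separate, and the same animals also enter the comparisons above.

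Without styrene, 0 of the 8 genes passed between strains. The percentages of all genes were 0.129 for KO against WT, 0.0877 for TG against WT and 0.0292 for TG against KO at 1 week, and 0.123, 0.164 and 0.0409 at 4 weeks. Over these 6 comparisons, groups did not overlap for 0.474% to 1.91% of all genes. Of 48 member tests, 1 had groups that did not overlap. It was Cry2 in TG against WT at 1 week, a comparison in which 1.08% of all genes did not overlap, with 7.37, 7.47, 7.19, 7.29 and 7.39 in WT and 7.62, 7.49, 7.70, 8.05 and 7.96 in TG animals (0.42, SE 0.13, adjusted p = 0.30). Between 4 weeks and 1 week at 0 ppm, 0 members passed in WT (0.638% of all genes), KO (0.538%) or TG (0.304%), and the largest difference was 0.39 for Ciart in WT (SE 0.22).

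The order of the 18 group means differed between genes. Per3 was highest in the WT group at 120 ppm and 4 weeks (8.71 ± 0.45, SD, n = 5) and lowest in the 1 week WT controls (7.08 ± 0.31). Per2, Cry2 and Bhlhe41 were also lowest in the 1 week WT controls, at 7.20 ± 0.61, 7.34 ± 0.11 and 3.39 ± 0.12. Bhlhe40 was highest in the 1 week WT group at 120 ppm (9.67 ± 0.26), Ciart in the 4 week WT group at 120 ppm (6.55 ± 0.34), and Cry1 in the 4 week WT controls (7.50 ± 0.25). Per1 and Cry2 were highest in the 1 week TG group at 120 ppm (8.89 ± 0.17 and 7.81 ± 0.27). Neighbours in these orders differed by less than the pooled SD within groups in all 17 steps for 6 of the genes, and 1 step exceeded it for Per3 (0.35 against an SD of 0.34) and for Bhlhe40 (0.37 against 0.29). The pooled SD within groups was 0.42 for Per2, 0.37 for Per1, 0.35 for Ciart, 0.34 for Per3, 0.29 for Bhlhe40, 0.25 for Cry1, 0.23 for Bhlhe41 and 0.20 for Cry2. Among all genes, these spreads lay between the 59.1 percentile (Cry2) and the 95.9 percentile (Per2).

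Animals of the same group also differed from one another in a shared way. The deviation of each animal from its group mean was correlated over 90 animals for the 28 pairs of the 8 genes. In 17 pairs the correlation was positive and passed (permutation test within groups, adjusted over the 28), in 0 it was negative and passed, and the median r was 0.30. Pairs drawn from all genes were not counted in the same way. Whether so many passing pairs are particular to these genes was thus not tested. Per3 with Ciart (r = 0.70, rho = 0.66), Per2 with Ciart (0.67, rho = 0.61), Per2 with Bhlhe40 (0.62, rho = 0.60) and Per2 with Per3 (0.56, rho = 0.57) were the strongest. The unadjusted permutation p of each was 1e-05, the smallest that 100000 resamples can give, and the adjusted p 5.6e-05. Without the 2 animals farthest from the median, r was 0.66, 0.66, 0.59 and 0.57. Per1 passed with Cry2 alone (r = 0.26, rho = 0.23, permutation p = 0.025, adjusted p = 0.044), and the adjusted p of its rho was 0.093. Cry1 passed with Ciart (r = 0.33, adjusted permutation p = 0.022) and Per2 (0.29, adjusted permutation p = 0.036), and for these the adjusted p of rho was 0.093 and 0.11.

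Set against other clock genes in the same animals, a set of 32 pairs added after the data were seen, Per3 deviated against Arntl (r = -0.82, rho = -0.82) and Npas2 (-0.77, rho = -0.75) and with Dbp (0.82, rho = 0.86) and Nr1d2 (0.70, rho = 0.74). Each had a permutation p of 1e-05 and an adjusted p of 2.3e-05. Ciart (-0.71 with Npas2, -0.68 with Arntl) and Per2 (-0.67 and -0.63) also ran against the activators, and Cry2 ran with Dbp (0.64). Per1 did not pass with Arntl (r = -0.01), Npas2 (0.02) or Dbp (0.14), and its r with Nr1d2 was -0.24 (adjusted permutation p = 0.046). Cry1 passed with Nr1d2 (r = -0.29, adjusted permutation p = 0.022) and Arntl (-0.27, adjusted permutation p = 0.039), and for these the adjusted p of rho was 0.068 and 0.11. It was at -0.04 with Npas2 and -0.06 with Dbp. All these genes share arrays and normalization, and the lowest Npas2 values, at 3.37, lay below the lowest array median.

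**Figure D3:**
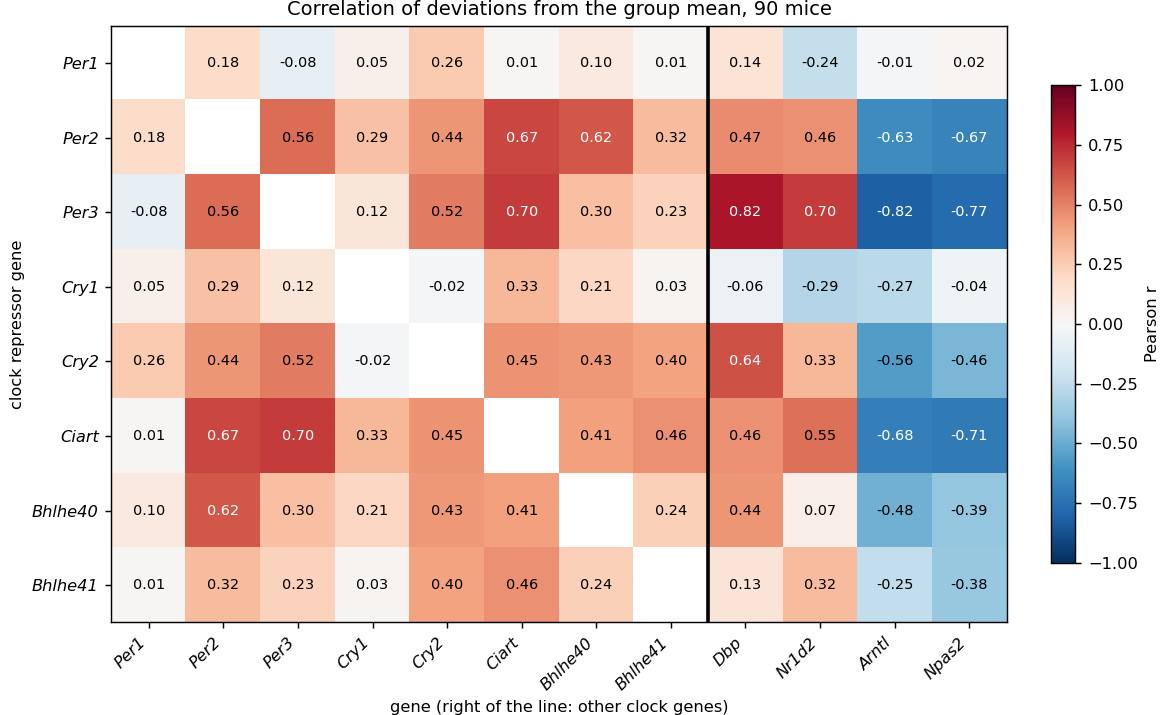
Pearson r of deviations from the group mean over 90 animals, between the 8 clock repressor genes (left of the line) and with Dbp, Nr1d2, Arntl and Npas2 (right of the line). Red is positive and blue negative. The Per3 row reaches 0.82 with Dbp and -0.82 with Arntl, and the Per1 row stays between -0.24 and 0.26.

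**Figure D4:**
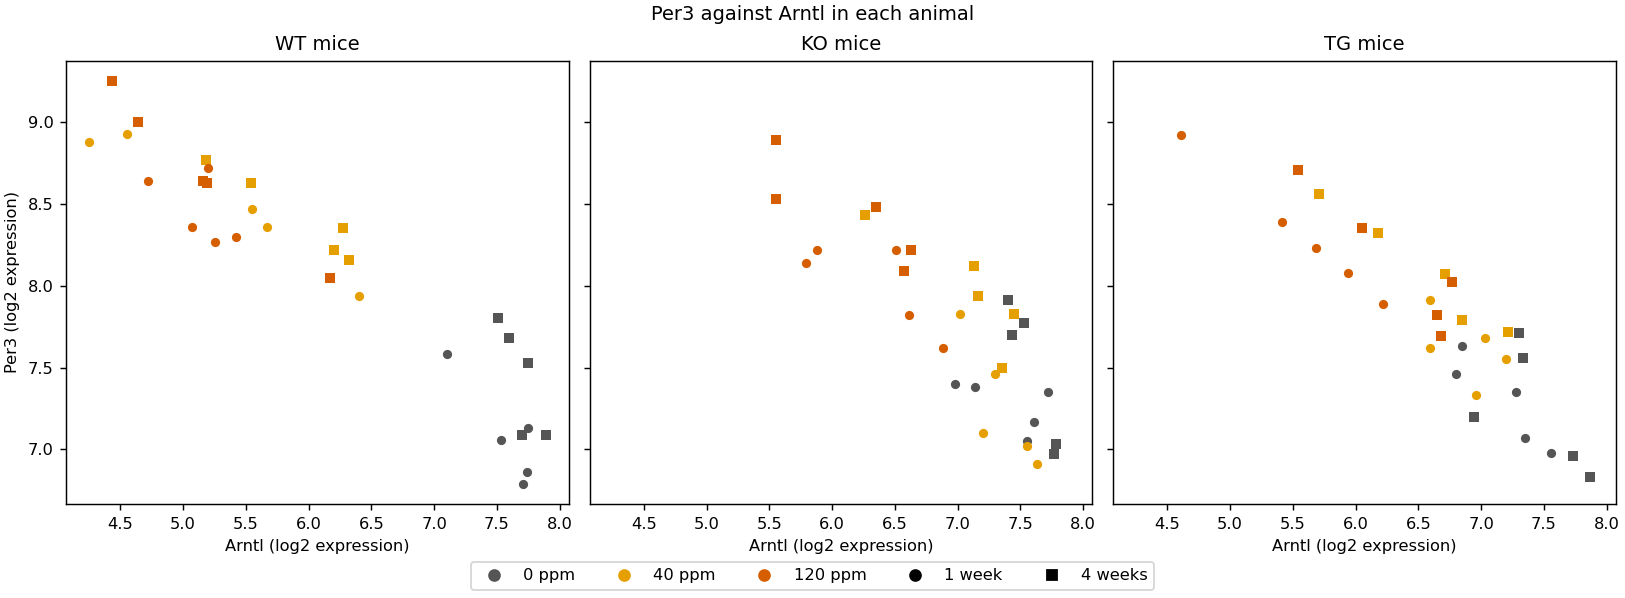
Per3 against Arntl, both in log2 expression, for each animal in WT, KO and TG mice (colour gives the dose in ppm, shape the duration). Per3 is high where Arntl is low in each strain, and the WT controls lie apart from all exposed WT animals.

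The replicate number in the labels moved with part of this spread. Across all genes, an F test of the 5 numbers in limma, added after the data were seen, called 1212 of 17097 genes (7.09%). Of the 8 genes it called 5, namely Cry2 (adjusted p = 4.5e-06), Per3 (0.0017), Ciart (0.0033), Bhlhe41 (0.030) and Per2 (0.033), and not Bhlhe40 (0.084), Per1 (0.49) or Cry1 (0.95). Animals numbered 1 lay below their group mean in 17 of 18 groups for Ciart, 16 of 18 for Cry2 and for Bhlhe40, 15 of 18 for Per3 and 14 of 18 for Per2. With the number's mean removed, r was 0.59 for Per3 with Ciart, 0.66 for Per2 with Ciart, 0.53 for Per2 with Bhlhe40, 0.55 for Per2 with Per3, -0.79 for Per3 with Arntl and 0.79 for Per3 with Dbp. In 7 of the 17 pairs that passed, r became lower by over 1.5 times, from 0.52 to 0.32 for Per3 with Cry2, from 0.44 to 0.27 for Per2 with Cry2, from 0.45 to 0.22 for Cry2 with Ciart, from 0.43 to 0.25 for Cry2 with Bhlhe40, from 0.40 to 0.15 for Cry2 with Bhlhe41, from 0.32 to 0.19 for Per2 with Bhlhe41 and from 0.23 to 0.01 for Per3 with Bhlhe41. For Per1 with Cry2 it was 0.50, and for Cry2 with Nr1d2 it went from 0.33 to 0.01. The labels name it only as a biological replicate, and its part in the correlations beyond these values was not tested.

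By a search over 10257 genes at or above the 40th percentile of mean level (10258 for Bhlhe41), the 3 genes most like each member were listed as a description. Over the 18 group means, Per3 was most like Tef (r = 0.96), Dbp (0.96) and Nr1d2 (0.95), all of the clock. Per2 was most like Tef (0.90), Fam76a (0.90) and Per3 (0.87), and Ciart most like Sspn (0.89), Per3 (0.87) and Nr1d2 (0.86). Cry1 was most like Parm1 (0.92), Stip1 (0.90) and Ahsa1 (0.89), of which the last 2 encode co-chaperones of HSP90. The nearest to Bhlhe40 were Fig4 (0.92), Cenpu (0.92) and Fkbp11 (0.91), to Per1 Tns2 (0.90), Pdlim2 (0.89) and Rgcc (0.89), to Cry2 Ackr2 (0.90), Sphk1 (0.89) and Gpr146 (0.88), and to Bhlhe41 Mthfd1l (0.79), Tnxb (0.78) and Lefty1 (0.77). These means share control groups and arrays.

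Within groups, over 90 animals, the lists differed. Per3 was most like Dbp (0.82), Tef (0.81) and Hlf (0.77), the 3 D-box factors. Per1 was most like Rasgef1b (0.82), Csrnp1 (0.81) and Cebpd (0.81), a transcription factor of the acute-phase response. Cry2 was most like Sphk1 (0.81), Tef (0.77) and Cyp2b10 (0.76), and Ciart most like Per3 (0.70), Rev1 (0.68) and Cipc (0.67), the last a CLOCK-interacting repressor. Per2 was nearest to Ciart (0.67), Rev1 (0.62) and Bhlhe40 (0.62), and Bhlhe40 to Trip10 (0.69), Stbd1 (0.68) and Arhgap8 (0.68). For Cry1 the highest was 0.52 with Fanca, followed by Anks3 (0.49) and Mthfd1l (0.48), and for Bhlhe41 0.59 with Slc31a1, followed by 4933427D14Rik (0.58) and Rab22a (0.57).

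The other clock genes were read from lists of activators, nuclear receptor repressors, outputs and regulators of PER and CRY turnover. Of 6 measured activators, Arntl and Npas2 fell in all 4 WT comparisons, and the other 4, Clock, Arntl2, Rora and Rorb, did not pass in any of them. The Arntl differences were -2.28 and -2.43 at 1 week and -1.79 and -2.57 at 4 weeks (40 and 120 ppm, SE 0.29), and those of Npas2 were -1.75, -2.17, -1.82 and -2.22. The list medians were -0.42, -0.55, -0.33 and -0.36. Of the nuclear receptor repressors only Nr1d2 was measured. It rose by 1.16 and 1.13 at 1 week and by 1.37 at 120 ppm and 4 weeks (SE 0.30), and its value of 1.16 at 40 ppm and 4 weeks did not pass (adjusted p = 0.098). Of 4 outputs, Dbp rose 10.27-fold and 10.72-fold at 1 week and 6.65-fold and 10.07-fold at 4 weeks, and Tef rose by 0.74, 0.81, 0.75 and 0.96 (SE 0.16). Hlf rose in 3 of the 4 comparisons, from 1.17 to 1.25, and was 0.78 at 40 ppm and 4 weeks (adjusted p = 0.44). Nfil3 fell in all 4 (-0.90, -1.08, -1.10 and -1.63, SE 0.26). Of 9 measured regulators of turnover, Btrc, which encodes an F-box protein that marks PER for degradation, fell after 1 week at 120 ppm (-0.47, SE 0.11, adjusted p = 0.0034). There 6.79% of all genes passed. In the other 3 WT comparisons 0 of the 9 passed. In KO and TG lungs, 0 of the 9 passed in any comparison.

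Lists of the clock's known inputs and of other cells were read in the same WT comparisons. Of all genes, 4.67% passed at 40 ppm and 6.79% at 120 ppm after 1 week. After 4 weeks 0.152% and 0.439% passed. With lists this short, a count of 1 gene is close to those 1 week shares. Of 9 glucocorticoid-responsive genes 2 fell at 40 ppm and 4 at 120 ppm after 1 week, led by Dusp1 (-0.95, SE 0.19) and Cdkn1a (-0.95, SE 0.27) at 120 ppm. The list medians were -0.51 and -0.42. Fkbp5, a gene of this list, had group means of 7.68 in 1 week controls, 7.57 at 40 ppm and 7.98 at 120 ppm. After 4 weeks 0 and 1 fell, with list medians of -0.12 and -0.31. Of 10 immediate early genes Nr4a3 fell in all 4 comparisons (-1.56, -1.73, -1.36 and -1.39), and Nr4a2 also fell at 120 ppm and 1 week (-0.90). Of 10 hypoxia-responsive genes, a class to which Bhlhe40 also belongs, Adm fell at 1 week at both doses (-1.49 and -1.79, SE 0.28) and at 120 ppm and 4 weeks (-1.27), and Ankrd37 rose at 120 ppm and 1 week (0.68). Of 7 temperature-responsive genes Hspa1b fell at 120 ppm and 1 week (-1.60, SE 0.51), and 0 passed in the other 3.

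Of 12 alveolar macrophage markers, Ctsk rose at 40 ppm and 1 week (1.25, SE 0.26), and 3 rose at 120 ppm and 1 week, led by Ctsk (1.26) and Marco (0.98), while 0 passed at 4 weeks. The mean level of that list per animal ran from 8.20 to 8.72 in 1 week WT controls, from 8.60 to 9.05 at 40 ppm and from 8.64 to 9.43 at 120 ppm. Of 6 neutrophil markers Cd177 and Mmp8, both of granules or their surface, rose at 1 week (Cd177 by 3.09 and 2.33, SE 0.41). No other marker of that list passed at 1 week, and the mean of Cd177 over all arrays lay below the lowest array median. The neutrophil list's level per animal ran from 6.09 to 7.20 in controls, from 7.07 to 7.37 at 40 ppm and from 5.75 to 8.10 at 120 ppm. Of the lung cell markers Sftpd rose at 1 week (0.21 and 0.20), and the endothelial genes Cldn5 (-0.50, SE 0.12) and Pecam1 (-0.37, SE 0.10) fell at 120 ppm. Of 8 T and NK cell and 4 B and plasma cell genes 0 passed in the 4 WT comparisons. The medians of the macrophage and neutrophil lists were 0.31 and -0.03 at 40 ppm and 1 week, 0.29 and 0.18 at 120 ppm and 1 week, and -0.03 and 0.14, then -0.06 and 0.21, at 4 weeks. The part of these lists in the rises of Per3 and Bhlhe40 was not tested.

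More than 1 probe set was available for 3 of the genes. All 5 for Per3 gave a positive difference in each WT comparison. The 4 with means from 4.72 to 7.87 ranged from 0.60 to 1.49, and their within-group r with the one used was 0.71 to 0.79, while the fifth, at a mean of 3.51, ranged from 0.09 to 0.45. The second Per2 probe set was dim (mean 4.29) and gave smaller WT differences of 0.17 to 0.32. The second for Bhlhe41 was dim as well (mean 3.48), did not run with the first within groups (r = -0.15), and gave 0.20 at 4 weeks and 120 ppm where the first gave 0.68. The rise of Bhlhe41 thus rests on 1 dim probe set.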

How the data were processed

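Whole-lung RNA from 90 animals was hybridised to Affymetrix arrays, 1 array per animal. The authors deposited log2 expression values per probe set, and RMA and Partek are named per the submitters' processing notes, with versions not given in the sources used here. RMA normalizes arrays against one another, so differences are relative to other genes. The medians of the deposited arrays still ranged from 4.42 to 4.86. From the 45141 deposited probe sets, 28898 with 1 listed gene symbol were kept, the brightest per gene giving 17097 genes. Log2 values were fitted with limma 3.58 in R 4.3.3 as 18 group means over all 90 arrays (72 residual degrees of freedom), and p-values were adjusted by Benjamini-Hochberg over the 17097 genes within a comparison. The comparisons were 12 exposure changes, 6 strain and 3 week differences at 0 ppm, 8 strain and 6 week differences in the change, and 2 dose differences in WT. Animals are biological replicates per the labels. Samples were grouped by the labels, and 0 array pairs were identical.

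Correlations used 100000 permutations of animals within groups. On simulated data for WT at 120 ppm and 1 week, 75% of 100 genes changed 1.5-fold and 92% of 100 changed 2-fold were recovered. The changed genes were drawn at random from all 17097, each with its own pooled spread. These shares thus do not describe the 8 genes, whose spreads lay between the 59.1 and 95.9 percentile. Nor do they describe the KO and TG comparisons, where few genes passed, since each simulation held 200 changed genes. Precision is limited by having 5 arrays in a group, among other things given with the results. All 8 genes were tested in every comparison, and not every value is printed. Of other clock lists, genes that passed in WT are named, up to 4 per list by size, and of other lists up to 2. The genes that passed at 120 ppm in KO at 4 weeks and in TG, Clock, Arntl2, Rora, Rorb and Fkbp5 were named after their values were seen. The 3 genes most like each member are given by Pearson r. The members, lists and rules were chosen with earlier results of these data known. As alternatives, arrays were quantile normalized a second time, genes with a mean under the 40th percentile were dropped, probe sets of a gene were combined by their median, the fit was restricted to the groups compared, and limma's trend and robust options were set. Array weights, a replicate block, removal of the 4 arrays of low weight, a covariate from 12 poly-A controls and removal of each animal in turn were also tried. Promoters of Per2 and Bhlhe40 and proteins were not used here, and Nr1d1 was not analysed here.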

Additional observations from a re-analysis of the deposited data

Results flagged for a closer look

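In 144 groups of 5 animals (8 genes by 18 groups), an animal stood apart from the other 4 in 4 groups, with a gap of over 0.71 of the group's range. Chance alone marks about 1 in 20 such groups. They were Per1 in KO mice at 40 ppm and 1 week, where animal 4 was lowest at 8.22, Per2 in WT mice at 40 ppm and 4 weeks, where animal 5 was lowest at 7.58, Cry1 in KO controls at 4 weeks, where animal 3 was lowest at 6.95, and Cry2 in WT mice at 120 ppm and 1 week, where animal 4 was highest at 7.79.

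The change with styrene differed between strains by the test of the difference itself in 6 cases, all at 1 week. Per3 differed at 40 ppm in KO against WT (-1.44) and in TG against WT (-1.11). Bhlhe40 differed at 40 ppm (-1.07 in KO, -0.91 in TG) and at 120 ppm (-1.02 in KO, -0.92 in TG). In each case the rise in WT was the larger. All 6 use the 1 week WT controls, which had the lowest group mean of all 18 for Per3, and KO and TG were compared with the same WT animals.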

How the results depend on the processing

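No difference that passed with all animals reversed its direction under any alternative. That does not cover small differences that did not pass, such as Cry1 in KO at 40 ppm and 1 week (-0.02, SE 0.15). The sign of such differences can depend on 1 animal. With 10 animals in a comparison left out in turn, the number of the 8 genes that passed was 2 to 4 in WT at 120 ppm and 1 week (5 with all animals), 0 to 2 at 40 ppm and 4 weeks in WT (1 with all), 0 to 1 in KO at 120 ppm and 4 weeks (0 with all) and 0 to 1 in TG at 120 ppm and 1 week (1 with all). Strain differences in the change numbered 6, and 3 to 6 with each animal left out, the lowest without TG control animal 5 at 1 week. The mean over both durations in KO at 120 ppm gave 1 to 2. Array weights moved the counts most, to 5 in WT at 40 ppm and 1 week (2 without weights), 3 at 120 ppm and 1 week, 3 at 40 ppm and 4 weeks, 4 at 120 ppm and 4 weeks, 2 in KO at 120 ppm and 4 weeks, 1 in TG at 40 ppm and 1 at 120 ppm at 4 weeks, and, over both durations, 2 in KO at 120 ppm and 2 in TG at 40 ppm (0 without). When only the arrays compared were fitted, 2 passed in WT and 0 in TG at 120 ppm and 1 week, where fewer arrays estimate the spread. In WT at 40 ppm and 4 weeks, 2 passed with the median over probe sets, the replicate block, 4 arrays of low weight left out or the poly-A covariate. In WT at 120 ppm and 4 weeks 1 passed with dim genes left out, since Bhlhe41 is then not tested. In KO at 120 ppm and 4 weeks Per3 alone passed after a second quantile normalization, without dim genes, with the replicate block or without the 4 arrays of low weight, which makes 1. In TG at 120 ppm and 1 week 0 passed with the median over probe sets or the poly-A covariate. With the replicate block 1 passed in TG at 120 ppm and 4 weeks (Per3 0.87, adjusted p = 0.037), and 1 strain difference without styrene passed (Cry2, TG against WT at 1 week, 0.42, adjusted p = 0.045). The shares of all genes that passed under each alternative are not printed here. The counts in this paragraph thus cannot be set against all genes. The causes of the other shifts were not tested. Same-numbered animals were not treated as pairs, since their deviations over all genes correlated above 0.1 in 344 of 765 pairs and not in every one, with a median of 0.069 against -0.02 for other numbers. Per3 and Bhlhe40 in WT at 1 week, Per3 at 120 ppm and 4 weeks and both in KO against WT at 40 ppm and 1 week passed under every alternative run. The median r of 28 pairs, 0.30, ranged from 0.22 (replicate block) to 0.34. With 5 animals a group and values that are dim for Bhlhe41, small differences could not be detected.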

Other observations

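Fkbp5, which encodes a co-chaperone of the glucocorticoid receptor, also moved with the replicate number. Animals numbered 1 were below their group mean in 18 of 18 groups, by 0.97 ± 0.47 log2 on average (SD, n = 18 groups), and animals numbered 4 above it in all but 1. The adjusted p was 2.9e-13 in limma over 17097 genes. Arntl ran the other way, with animals numbered 1 above the group mean by 0.31 ± 0.25 and below it in 1 of 18 groups (adjusted p = 0.020). Cry1 (0.95) and Per1 (0.49) did not pass in the same test. Fkbp5 was chosen after its values were seen, and the cause was not tested.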
